A study of Mus musculus with 6 samples.

Results

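The enzymes described here modify and cross-link collagen. They are 10 genes of 24421 in the count table, taken by symbol: the prolyl 4-hydroxylase alpha subunits P4ha1, P4ha2 and P4ha3, the lysyl hydroxylases Plod1, Plod2 and Plod3, and the lysyl oxidases Lox, Loxl1, Loxl2 and Loxl3. All 10 symbols were found. RNA came from Neuro2a, a mouse neuroblastoma line of wild-type genotype per the labels, grown in serum-containing medium on plates coated with collagen I. Cells received an adenovirus with a control hairpin (ADV-shCtrl, here shCtrl, 3 samples) or with a hairpin against Fam172a (ADV-shFam172a, here shFam172a, 3 samples) and were taken after 48 h, so both groups carry virus and hairpin. The series title links Fam172a to histone lactylation and energy balance in neurons that make pro-opiomelanocortin. Nothing says that the 3 samples of a group were separate infections, so a p-value measures how these samples spread, and that spread may be technical only.

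Collagen chains are modified in the endoplasmic reticulum before they fold. Prolyl 4-hydroxylase, made of alpha subunits that carry the catalytic site and of the beta subunit P4hb, forms the hydroxyproline that keeps the triple helix stable at body temperature. Lysyl hydroxylases form the hydroxylysine that later carries sugars and takes part in cross-links. Both kinds of enzyme use molecular oxygen, iron, 2-oxoglutarate and ascorbate. Outside the cell, the copper enzymes of the lysyl oxidase family oxidise lysine and hydroxylysine so that collagen and elastin fibres cross-link. P4ha1, P4ha2, Plod2 and Lox are textbook targets of the hypoxia-inducible factor HIF.

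Gene counts summed to between 11250312 and 12820531 per library in shCtrl and between 21690467 and 23409319 in shFam172a. Fam172a itself, the target of the hairpin, stood at 46.5% of its shCtrl mean, with a log2 fold change of -1.10 ± 0.092 (SE). Rn45s, the precursor of ribosomal RNA, went from 492.2 ± 78.2 to 984.7 ± 177 CPM (SD, n = 3, adjusted p = 0.021). Depth and Rn45s therefore moved with the group. With the shFam172a counts thinned to the mean shCtrl depth, 5 of the genes described here were again higher and 1 lower. The part of Rn45s in the results was not tested. Markers of the line were present: 11 of 12 sympathoadrenal markers passed the filter on low counts, and the list summed to between 1906 and 1942 CPM in shCtrl and between 1940 and 1965 CPM in shFam172a. Of the 11 tested, 5 were higher and 2 lower, among them Th, the enzyme that makes the precursor of dopamine, from 9.28 ± 1.30 to 18.7 ± 1.05 CPM, and Elavl4, a neuronal RNA-binding protein, from 302.7 ± 3.74 to 213.5 ± 7.35 CPM (both named after their values were seen). Summed fibroblast markers lay between 288.8 and 319.4 CPM in shCtrl and between 320.2 and 324.4 CPM in shFam172a, nearly all of it Fbln1. Of the 12 fibroblast markers 5 were tested and 1, Fbln1, was higher. Pdgfra had 49 to 86 counts per library, Pdgfrb 60 to 140, Col1a1 8 to 29 and Dcn 6 to 28. The other 7 were at 4 counts or fewer in every library, with Fap and Pdpn at 0 in all. The part of these cell type markers in the results was not tested. Summed markers of macrophages lay between 1.01 and 2.06 CPM against 2.02 and 2.52 CPM, those of endothelium and epithelium between 24.6 and 27.7 CPM against 30.03 and 33.1 CPM, and those of astrocytes and oligodendrocytes between 50.6 and 54.02 CPM against 47.8 and 52.7 CPM.

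Of the 10 genes, 8 passed the filter on low counts. Of these, 5 were higher in shFam172a, 1 was lower and 2 were not called by edgeR's quasi-likelihood test at a Benjamini-Hochberg adjusted p under 0.05. That test called 36.1% of all 12820 genes tested, 17.5% as higher and 18.6% as lower. A test against a 1.5-fold change was more selective, and called 0.577% of genes, 0.569% as higher and 0.0078% as lower. It called 3 members, P4ha1, P4ha2 and Plod2, all higher. The groups did not overlap for 46% of all genes tested (22.5% higher and 23.5% lower) and for 6 of these 8 (5 higher and 1 lower). In the text, CPM is the count scaled to library size with TMM factors, given as mean ± SD with n = 3, and log2 fold changes, with their SE, are positive where shFam172a was higher.

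**Figure D1:**
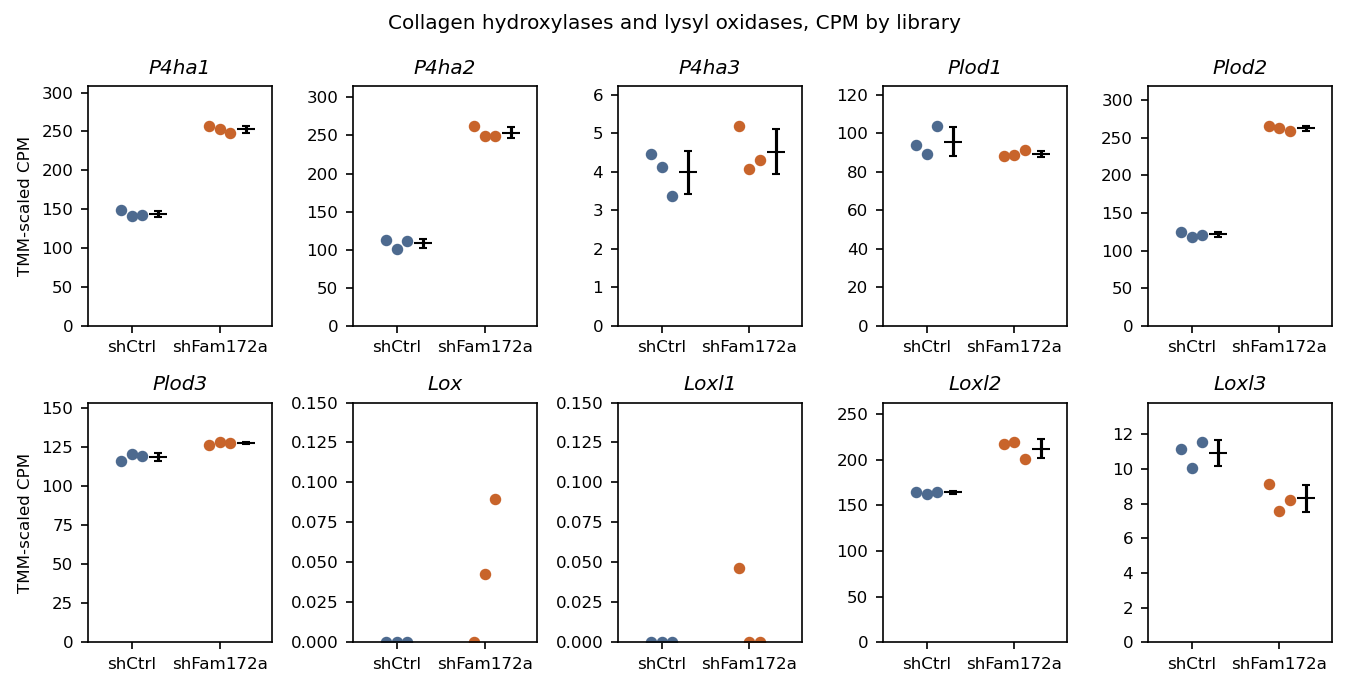
TMM-scaled CPM (vertical axes, each from 0) of the 10 genes in the 3 shCtrl (blue) and 3 shFam172a (orange) libraries, replicates 1 to 3 from left to right, with mean and SD in black except for Lox and Loxl1. P4ha1, P4ha2 and Plod2 separate widely, Loxl2 and Loxl3 by less and in opposite directions, and Lox and Loxl1 are at or near 0.

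The collagen prolyl 4-hydroxylase alpha subunits P4ha1 and P4ha2 were both raised in the knockdown, and P4ha3 was low and not called. P4ha1 (ENSMUSG00000019916.14, chromosome 10, 59323296 to 59373304, plus strand, GRCm38) is the broadly expressed alpha subunit. P4ha2 (ENSMUSG00000018906.14, chromosome 11, 54100095 to 54131665, plus strand) encodes the alpha subunit best known from cartilage and endothelium. P4ha3 (ENSMUSG00000051048.17, chromosome 7, 100285520 to 100319699, plus strand) is the least expressed of the family in most tissues. No exon of these genes overlaps an exon of another gene in the annotation.

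P4ha1 had 1735, 1819 and 1607 counts in shCtrl and 5548, 5919 and 5512 in shFam172a. Scaled, these were 148.8, 141.7 and 142.4 CPM against 257.1, 253.9 and 247.8 CPM. All 3 knockdown libraries lay above all 3 controls, and the means were 144.3 ± 3.90 and 252.9 ± 4.72 CPM. The log2 fold change was 0.81 ± 0.032 (adjusted p = 3.3e-22), and against a 1.5-fold change adjusted p was 6.9e-07.

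P4ha2 moved by more. Its counts were 1317, 1302 and 1253 in shCtrl and 5663, 5817 and 5546 in shFam172a, or 112.9, 101.4 and 111.01 CPM against 262.4, 249.5 and 249.3 CPM. The lowest knockdown library was above the highest control by far more than the spread in either group. The means were 108.4 ± 6.16 and 253.7 ± 7.52 CPM, a log2 fold change of 1.23 ± 0.037, with adjusted p = 4.8e-26 (3.0e-17 against a 1.5-fold change). By size of rise P4ha2 ranked 54 and P4ha1 185 among the 12820 genes.

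P4ha3 had 52, 53 and 38 counts in shCtrl and 112, 95 and 96 in shFam172a. These were 4.46, 4.13 and 3.37 CPM against 5.19, 4.07 and 4.32 CPM, and the groups overlapped. Its log2 fold change of 0.18 ± 0.17 did not pass (adjusted p = 0.44), and the error leaves room for changes of either sign.

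Sequence before the RefSeq starts of the alpha subunit genes is shown because P4ha1 and P4ha2 moved together and P4ha3 did not pass the test. The printed windows were thus chosen after the fold changes were seen, so how their matches line up with those changes carries no weight. RefSeq promoter entries (GRCm38.p6) were matched for 5 of the 10 members: P4ha1, P4ha2, P4ha3, Plod1 and Plod3. The 250 bases before each start were searched on both strands for ACGTG and GCGTG, the core letters of the element that HIF binds, and overlapping matches were counted once. Capitals mark the matches, which read CACGT or CACGC where the match is on the other strand. The windows are chr10:59323046-59323295 for P4ha1, chr11:54100674-54100923 for P4ha2, chr7:100285270-100285519 for P4ha3, all on the plus strand, and chr4:147936777-147937026 on the minus strand for Plod1, a lysyl hydroxylase that was not called. The RefSeq start of P4ha2 lies inside the GENCODE span given above, so its window is not upstream of the whole gene: it falls in an intron of a longer transcript and touches no annotated exon.
P4ha1: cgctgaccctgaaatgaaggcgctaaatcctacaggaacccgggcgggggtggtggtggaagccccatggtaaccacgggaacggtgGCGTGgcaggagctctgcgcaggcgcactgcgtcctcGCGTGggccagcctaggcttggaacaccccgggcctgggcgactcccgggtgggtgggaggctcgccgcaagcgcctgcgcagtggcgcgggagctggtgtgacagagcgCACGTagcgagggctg
P4ha2: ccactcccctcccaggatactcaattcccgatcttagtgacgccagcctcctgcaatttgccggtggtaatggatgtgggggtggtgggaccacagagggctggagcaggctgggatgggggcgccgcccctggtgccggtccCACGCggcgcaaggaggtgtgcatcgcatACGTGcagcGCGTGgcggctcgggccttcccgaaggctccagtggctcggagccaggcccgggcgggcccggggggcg
P4ha3: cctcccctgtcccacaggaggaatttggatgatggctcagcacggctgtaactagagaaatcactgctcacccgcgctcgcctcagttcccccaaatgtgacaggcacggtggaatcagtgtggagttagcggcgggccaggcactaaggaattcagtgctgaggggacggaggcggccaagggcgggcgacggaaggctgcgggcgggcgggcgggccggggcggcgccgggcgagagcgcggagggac
Plod1: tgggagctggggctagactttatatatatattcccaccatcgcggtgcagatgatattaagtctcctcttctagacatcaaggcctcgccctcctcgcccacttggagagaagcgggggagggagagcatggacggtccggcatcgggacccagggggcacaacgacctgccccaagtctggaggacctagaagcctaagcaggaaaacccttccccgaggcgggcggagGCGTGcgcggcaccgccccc
The P4ha1 window holds 3 matches, whose first letters lie 163, 126 and 16 bases before the start, and the P4ha2 window holds 3, at 107, 78 and 69 bases. The P4ha3 window holds 0 and the Plod1 window 1, at 20 bases. Plod3, whose difference was small, has 4 matches in its window, which overlaps exons of Znhit1 and is not printed. Of all 32851 promoter entries of this length, 38.6% hold at least 1 match and 4.65% at least 3. These shares were not matched for GC content, which was 69.6% in the P4ha1 window, 70% in P4ha2, 67.2% in P4ha3 and 61.6% in Plod1. A match describes letters and is not a measured binding site. No window was searched for the other 5 members, Plod2 among them, and no relation between matches and fold changes was tested.

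The lysyl hydroxylases split. Plod2, which hydroxylates lysines in the telopeptides at the ends of collagen chains, stood at 2.16 times its control mean, while Plod1 and Plod3 stood at 93.4% and 107% of their control means. Plod1 (ENSMUSG00000019055.15, chromosome 4, 147909753 to 147936767, minus strand) modifies lysines of the helical part. Plod3 (ENSMUSG00000004846.10, chromosome 5, 136987019 to 136996648, plus strand) also transfers sugars to hydroxylysine. Plod2 (ENSMUSG00000032374.14) lies on chromosome 9 at 92542223 to 92608428 on the plus strand.

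Plod2 had 1452, 1524 and 1370 counts in shCtrl and 5729, 6123 and 5771 in shFam172a. These were 124.5, 118.7 and 121.4 CPM against 265.5, 262.6 and 259.4 CPM, so the groups stood clear of each other. The means were 121.5 ± 2.89 and 262.5 ± 3.03 CPM, with a log2 fold change of 1.11 ± 0.032 (adjusted p = 3.5e-26, and 1.9e-16 against a 1.5-fold change). Plod2 was the gene of rank 3 by p over the whole table and P4ha2 that of rank 4. Of its merged exons, 346 of 5392 bases overlap the gene model Gm38391 on the opposite strand.

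Plod1 stood at 93.9, 89.4 and 103.8 CPM in shCtrl and at 87.998, 88.99 and 91.3 CPM in shFam172a, with overlapping groups. Its log2 fold change was -0.10 ± 0.044 (adjusted p = 0.086). Without shCtrl replicate 2 it was -0.14 with adjusted p = 0.022, and without shCtrl replicate 3 it was -0.03 with adjusted p = 0.65. Corrected for a trend over transcript length and GC content, it was -0.13 with adjusted p = 0.015.

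Plod3 stood at 116.004, 120.7 and 119.2 CPM in shCtrl and at 126.4, 127.8 and 127.6 CPM in shFam172a. Each knockdown library was above each control, by little. The log2 fold change was 0.10 ± 0.036 (adjusted p = 0.023). The call ended without shCtrl replicate 1 (0.09, adjusted p = 0.096), without shFam172a replicate 2 (0.10, adjusted p = 0.061), with DESeq2 (adjusted p = 0.058) and with the length and GC correction (0.05, adjusted p = 0.28). Plod3 shares 529 exon bases with Znhit1 on the opposite strand, which was at a log2 fold change of -0.08 ± 0.059 (adjusted p = 0.33).

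**Figure D2:**
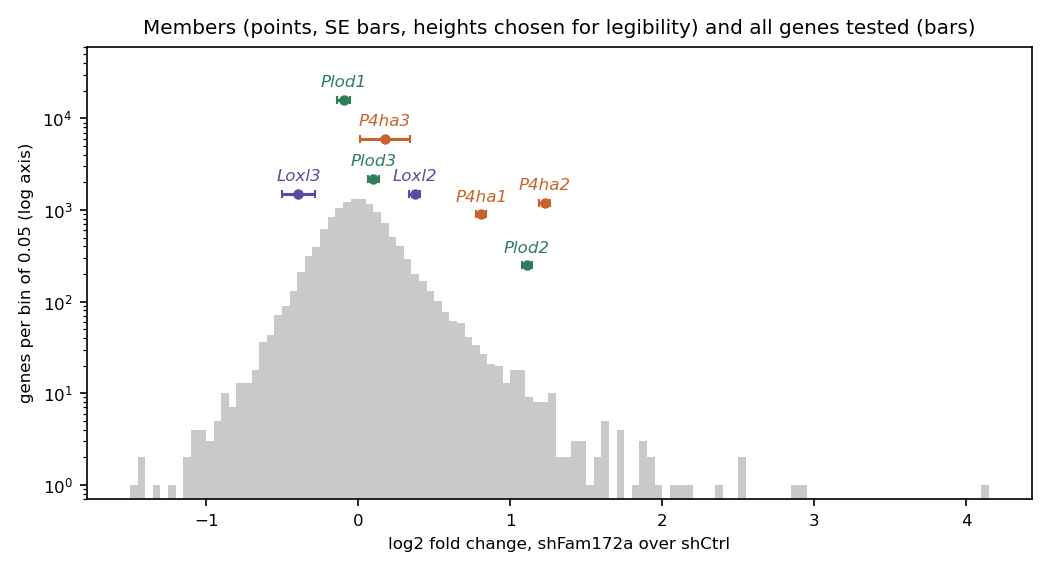
Log2 fold changes (horizontal axis) of the 8 tested members, as points with SE bars whose height carries no meaning, above a histogram of all 12820 genes tested (grey, genes per bin on a log axis). Plod2 at 1.11 and P4ha2 at 1.23 lie in the thin right tail, and Plod1, Plod3 and P4ha3 lie in the bulk.

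The lysyl oxidase transcripts of this line were almost all Loxl2. Lox (ENSMUSG00000024529.14, chromosome 18, 52516067 to 52529867, minus strand), the founding enzyme of the family, had 0 counts in all 3 shCtrl libraries and 0, 1 and 2 in shFam172a. Loxl1 (ENSMUSG00000032334.10, chromosome 9, 58287738 to 58313186, minus strand), known for its part in elastic fibres, had 0 counts in shCtrl and 1, 0 and 0 in shFam172a. Neither passed the filter and no fold is given. Over the summed gene counts of shCtrl, 0 counts leave room for as much as 0.0840 CPM, from counting error only. Lox, named above as a textbook HIF target, was thus at or near 0 in both groups, and its response could not be measured.

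Loxl2 (ENSMUSG00000034205.16, chromosome 14, 69609068 to 69695834, plus strand), an oxidase linked to the cross-linking of basement membrane collagen, had 1926, 2084 and 1861 counts in shCtrl and 4690, 5101 and 4459 in shFam172a. These were 165.1, 162.3 and 164.9 CPM against 217.3, 218.8 and 200.4 CPM. The controls lay close together and below every knockdown library, the lowest of which was replicate 3. The log2 fold change was 0.37 ± 0.034 (adjusted p = 3.5e-11), and the test against a 1.5-fold change gave adjusted p = 1. Loxl2 shares 301 exon bases with Gm27177 on the opposite strand.

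Loxl3 (ENSMUSG00000000693.10, chromosome 6, 83034173 to 83052562, plus strand) moved the other way. It had 130, 129 and 130 counts in shCtrl and 197, 177 and 182 in the deeper shFam172a libraries. Scaled, these were 11.1, 10.05 and 11.5 CPM against 9.13, 7.59 and 8.18 CPM, with every knockdown library below every control. The log2 fold change was -0.39 ± 0.11 (adjusted p = 0.0051). Loxl3 shares 535 exon bases with Htra2 on the opposite strand, and Htra2 fell by a like amount, with a log2 fold change of -0.37 ± 0.049. With the strand setting of the counting unknown here, reads of the shared stretch cannot be told apart. Loxl4, which belongs to the same family but not to the 10 genes and was named after its values were seen, had 1 to 5 counts per library.

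Which paralog dominates was read from levels per length, as CPM per kb of merged exons. In shCtrl the order from the top was P4ha1 at 35.1 ± 0.947, Loxl2 at 30.4 ± 0.286, Plod3 at 26.2 ± 0.526, Plod2 at 22.5 ± 0.536, P4ha2 at 17.4 ± 0.987 and Plod1 at 14.1 ± 1.09 CPM per kb. Loxl3 at 2.37 ± 0.166 and P4ha3 at 1.27 ± 0.179 CPM per kb were far lower. In shFam172a the order was P4ha1 at 61.5 ± 1.15, Plod2 at 48.7 ± 0.561, P4ha2 at 40.7 ± 1.21, Loxl2 at 39.3 ± 1.89, Plod3 at 28.2 ± 0.170, Plod1 at 13.2 ± 0.247, Loxl3 at 1.80 ± 0.169 and P4ha3 at 1.44 ± 0.187 CPM per kb. Neighbours in each order stood apart by more than their SDs except in shFam172a, where P4ha2 and Loxl2 lay within their SDs of each other and the gap from Loxl3 to P4ha3 was about the sum of their SDs. The order depends on the gene model. P4ha2 has 6239 bases of merged exons but 3060 in its longest transcript. By the longest transcript P4ha2 was at 35.4 and P4ha1 at 35.7 CPM per kb in shCtrl, and P4ha2 at 82.9 and P4ha1 at 62.6 CPM per kb in shFam172a.

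The makeup of both hydroxylase families shifted. Of the summed level per kb of the lysyl hydroxylases, Plod2 made up 36.9%, 35.5% and 35.05% in shCtrl and 54.6%, 54.04% and 53.6% in shFam172a. By this measure Plod2 was behind Plod3 in every control and ahead of it in every knockdown library. The control order depends on the length scaling: in unscaled CPM, Plod3 was 0.932, 1.02 and 0.982 times Plod2 in shCtrl. Plod3 went from 41.7% ± 1.21 to 31.3% ± 0.234 and Plod1 from 22.5% ± 1.31 to 14.7% ± 0.305. Among the alpha subunits, P4ha2 went from 32.3% ± 1.02 to 39.3% ± 0.396, P4ha1 from 65.3% ± 0.808 to 59.4% ± 0.539 and P4ha3 from 2.36% ± 0.309 to 1.39% ± 0.152. The size of these shares depends on the gene model, and by the longest transcript P4ha2 was above P4ha1 in shFam172a. Loxl2 went from 92.8% ± 0.414 to 95.6% ± 0.431 of its family and Loxl3 from 7.23% ± 0.414 to 4.39% ± 0.421. For each of these shares the groups did not overlap, and each exact permutation test (two-sided) gave p = 0.10 and adjusted p = 0.10, the smallest value that 3 against 3 allows. Shares within a family are tied to each other, so they do not count as separate results. Groups did not overlap for 46% of all single genes tested, and shares within other gene families were not computed.

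**Figure D3:**
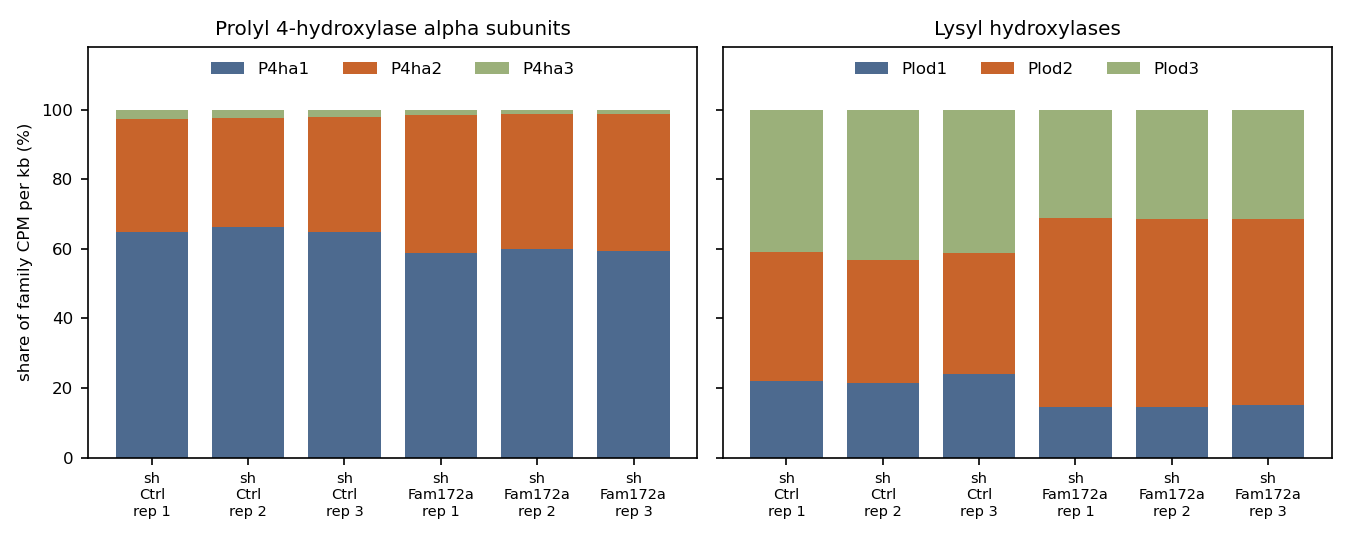
Share of the family's summed CPM per kb of merged exons (vertical axis, percent) by library for the prolyl 4-hydroxylase alpha subunits (left) and the lysyl hydroxylases (right). The Plod2 part is 35.05% to 36.9% in the shCtrl bars and 53.6% to 54.6% in the shFam172a bars, and the P4ha2 part widens by less.

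Ratios within a library compared the response of paralogs directly, over 7 pairs whose members both passed the filter. P4ha2 counts were 0.759, 0.716 and 0.780 times those of P4ha1 in shCtrl and 1.02, 0.983 and 1.01 times in shFam172a. The log2 ratio rose from -0.41 ± 0.063 to 0.0045 ± 0.028, so P4ha2 moved by 0.42 more than P4ha1. Plod2 was 1.33, 1.33 and 1.17 times Plod1 in shCtrl and 3.02, 2.95 and 2.84 times in shFam172a, a shift of the log2 ratio of 1.21. Plod3 over Plod2 shifted by -1.01 and Plod3 over Plod1 by 0.20. P4ha3 over P4ha1 shifted by -0.62, P4ha3 over P4ha2 by -1.04 and Loxl3 over Loxl2 by -0.76. The groups did not overlap for any of the 7 pairs, and each exact permutation test gave p = 0.10 (adjusted p = 0.10), the smallest the design allows, so none could pass 0.05. Pairs of the same family share members and are not independent. Single genes did not overlap in 46% of all genes tested, and no such share was computed over other gene pairs.

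The beta subunit P4hb, a protein disulfide isomerase that also has other partners, rose with the alpha subunits but by less. P4hb stood at 599.4, 596.8 and 590.3 CPM in shCtrl and at 839.7, 835.2 and 831.9 CPM in shFam172a, a log2 fold change of 0.49 ± 0.026 (adjusted p = 3.8e-18). Per kb, the 3 alpha subunits summed to 25.8% ± 0.825 of P4hb in shCtrl and to 35.5% ± 0.649 in shFam172a, with no overlap. Their sum went from 53.7 ± 1.84 to 103.6 ± 2.38 CPM per kb, that of the lysyl hydroxylases from 62.9 ± 1.17 to 90.1 ± 0.191 CPM per kb, and that of the lysyl oxidases from 32.7 ± 0.446 to 41.1 ± 1.90 CPM per kb. The alpha sum and its percent of P4hb depend on the gene model. By the longest transcript P4ha2 was at 35.4 instead of 17.4 CPM per kb in shCtrl and at 82.9 instead of 40.7 in shFam172a. P4hb was at 208.1 and 292.1 CPM per kb by either length.

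Lists of related genes are given by their counts, to be read beside the 36.1% of all genes tested that were called, 17.5% higher and 18.6% lower. Of 14 other endoplasmic reticulum proteins that act on collagen, 13 were tested, and 5 rose, 8 were not called and 0 fell, a called share near that over all genes. The median log2 fold change of the 13 was 0.01, beside -0.00030 over all genes tested. After P4hb the smallest p was that of Rcn3, a calcium-binding protein of the secretory pathway, at 0.52 ± 0.045 (adjusted p = 7.0e-12). The others, named after their values were seen, were the prolyl 3-hydroxylase family genes P3h3 at 0.41 ± 0.070, P3h1 at 0.24 ± 0.089 and P3h4 at 0.16 ± 0.062. Serpinh1, the collagen chaperone HSP47, also named after its values were seen, was low, with a control mean of 4.10 ± 0.194 CPM and a knockdown mean of 3.41 ± 0.189 CPM (-0.27 ± 0.17, adjusted p = 0.23). The count of 5 fell to 3 without shCtrl replicate 2 and without shCtrl replicate 3.

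Of 18 genes of procollagen export and maturation outside the cell 11 were tested, with 2 higher, 2 lower and 7 not called, and the median was 0.04. The called share is close to the 36.1% over all genes. Mia3, the export receptor TANGO1, was at 0.18 ± 0.029 (adjusted p = 3.1e-06) and fibronectin, Fn1, at 0.11 ± 0.028 (adjusted p = 0.0024). Bmp1, the C-proteinase of procollagen that also activates lysyl oxidase, was at -0.18 ± 0.061 (adjusted p = 0.021), and Ctage5, the partner of Mia3, at -0.10 ± 0.035 (adjusted p = 0.021). Without shCtrl replicate 2, and without shCtrl replicate 3, 0 genes of the list were lower, and 1 was lower without shFam172a replicate 1, 2 or 3. The N-proteinase genes, named after their values were seen, were low: Adamts3 and Adamts14 had at most 1 count in a library and Adamts2 at most 9.

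Among the collagen and elastin genes listed, the basement membrane chains Col4a1 and Col4a2 had the highest levels. Collagen genes outside the list were not ranked. Of 18 collagen and elastin genes 9 were tested, with 4 higher, 0 lower and 5 not called, and the median was 0.15. Col4a1 went from 280.2 ± 5.29 to 310.6 CPM (0.15 ± 0.031, adjusted p = 1.7e-04), and Eln, the elastin gene, from 14.4 ± 2.20 to 24.2 CPM (0.75 ± 0.085, adjusted p = 4.7e-09). Named after their values were seen, Col6a1 was at 0.42 ± 0.12 and Col11a2 at 0.41 ± 0.12, and Col4a2 at 546.4 ± 4.17 and 570.9 CPM was not called (0.06 ± 0.027, adjusted p = 0.067). The fibrillar chains of collagens I and III, chosen in the same way, were low, with Col1a1 at 0.974 ± 0.248 CPM in shCtrl and Col1a2 and Col3a1 at no more than 4 counts and 1 count in a library. Without shCtrl replicate 2, 2 genes of this list rose.

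Of 12 genes for ascorbate, iron and copper all were tested, with 4 higher, 2 lower and 6 not called beside 36.1% called over all genes, and the median was 0.08. The transferrin receptor Tfrc, which takes up iron, was at 0.59 ± 0.030 (adjusted p = 1.5e-18), and the ferritin heavy chain Fth1, which stores it, at -0.30 ± 0.029 (adjusted p = 9.9e-11). The other gene that fell was the ferritin light chain Ftl1 (-0.17 ± 0.025). Of the copper transporters, named after their values were seen, Slc31a1 was at 0.13 ± 0.033, Atp7a, which loads secreted copper enzymes, at 0.26 ± 0.040 and the low Atp7b at 0.97 ± 0.27. The ascorbate carrier Slc23a2, chosen in the same way, was at 0.08 ± 0.052 (adjusted p = 0.26).

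Other hydroxylases that use 2-oxoglutarate showed 5 of 7 higher, 1 lower and 1 not called, with a median of 0.17. Egln1, which marks HIF for degradation when oxygen is present, was at 1.02 ± 0.031, close to Plod2 in size, and Asph, an aspartyl and asparaginyl hydroxylase of the endoplasmic reticulum, at 0.38 ± 0.039. Ogfod1, a ribosomal prolyl hydroxylase, was the gene that fell (-0.23 ± 0.065, adjusted p = 0.0058), and it lost its call without shCtrl replicate 1. The count of 5 higher was 4 when any 1 library except shFam172a replicate 2 was left out. Of 12 HIF targets outside the 10 genes, drawn up with earlier results of these data known, 11 were higher and 0 lower, Car9 (named after its values were seen) was not called, and the median was 1.03. Among them were Pdk1 at 2.12 ± 0.062 and Ldha at 0.70 ± 0.027. Egln3, named after its values were seen, is in both lists, and its call is counted in each.

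**Figure D4:**
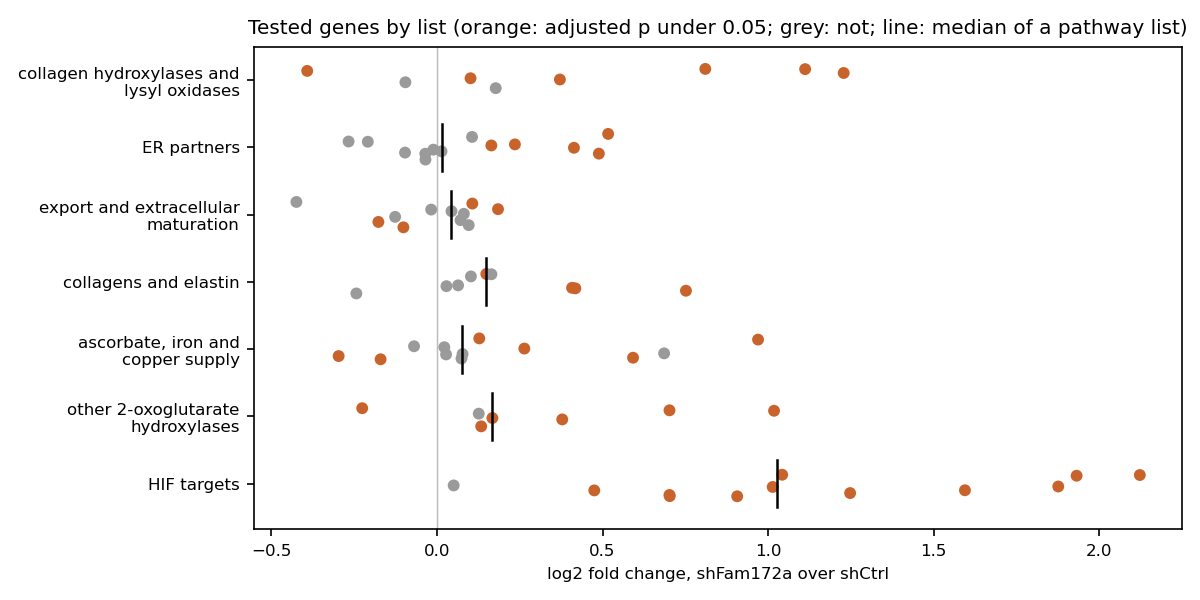
Log2 fold changes (horizontal axis) of the tested genes in the 10-gene group and in 6 lists of related genes, orange where adjusted p was under 0.05 and grey otherwise, with a black line at the median of each related list. The medians run from 0.01 for endoplasmic reticulum partners to 1.03 for HIF targets. The HIF targets range from 0.05 (Car9, low and not called) to 2.12 (Pdk1), and the 11 called ones from 0.47 (Vegfa). Of the tested members, P4ha1, P4ha2 and Plod2 lie within the range of the called targets. Loxl2, P4ha3, Plod3, Plod1 and Loxl3 lie below it.

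Genes whose levels followed a member most closely were looked up for the called member with the largest change in each family, by Pearson's r of log2 CPM over the 6 libraries among 10393 genes with a mean of at least 5 CPM. With 2 groups of 3, such an r mostly reflects the group difference, and 744 genes had r over 0.95 with P4ha2. The closest to P4ha2 were Mgarp, Kbtbd11 and Gpi1, an enzyme of glycolysis (r of 0.9996, 0.9994 and 0.9993), with log2 fold changes of 0.88, 2.16 and 0.68. The closest to Plod2 were Unc13a, a synaptic vesicle priming factor, Hk2, a hexokinase, and P4hb (r of 0.9997, 0.9995 and 0.9993), at 0.47, 0.76 and 0.49. The closest to Loxl3 were Alg5, Pi4k2b and Eps15 (r of 0.993, 0.992 and 0.992), at -0.09, -0.24 and -0.13, with 94 genes over 0.95.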

How the data were processed

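RNA of 6 Neuro2a samples was sequenced as paired-end libraries per the labels' protocols. The authors deposited raw counts, 1 value per gene symbol and library, with no scaling. The submitters' processing notes name HISAT2 2.0.5, HTSeq and mm10. No source used here gives the annotation or the strand setting. The 6 single-sample tables equalled the series table. Its 5 rows that name no gene held 33.5% to 37.6% of each library's total and were left out.

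Counts were filtered with filterByExpr by group (12820 of 18128 genes with any count kept), given TMM factors and fitted in R 4.3.3 with edgeR 4.0.16 (glmQLFit with robust estimation, glmQLFTest, and glmTreat against 1.5-fold), two-sided, with Benjamini-Hochberg adjustment over all genes tested. The SE is the size of the log2 fold change over the square root of F. Gene positions, lengths and exon overlaps came from GENCODE M21 (GRCm38, the build that mm10 names), matched by symbol. Counts in the tables carry Ctage5 for Mia2. Shares and paralog ratios were compared by exact permutation tests in SciPy 1.17.1.

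On counts simulated from these libraries (12820 genes, shFam172a against shCtrl), 41 of 50 genes changed 1.25-fold, 45 of 50 changed 1.5-fold and 49 of 50 changed 2-fold were recovered, and 11 of 12620 unchanged genes were called. The changed genes were drawn from those above a count floor, so genes with few counts were not covered. The test against a 1.5-fold change recovered 0 of 50 changed 1.5-fold, 39 of 50 changed 2-fold and 50 of 50 changed 4-fold. It called 0 unchanged genes. The chi-square per degree of freedom between replicates was 1.61 to 2.84, so no pair agreed within sampling noise. Alternatives were other scalings and filters, DESeq2 1.42.0, limma-voom (limma 3.58.1), thinning, a length and GC offset, the replicate block and leaving out each library.

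The members and lists were chosen with earlier results of these data known. All members are named, and of each related list the 2 genes with the smallest adjusted p plus up to 2 called genes of the opposite sign; other genes of those lists are marked as named after their values were seen. Cell type markers and genes that overlap a member were named outside that rule. In such bulk samples, fewer cells of a type and less RNA per cell cannot be told apart.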

Additional observations from a re-analysis of the deposited data

How the results depend on the processing

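P4ha1, P4ha2, Plod2, Loxl2 and Loxl3 kept their direction and call under all 16 alternatives, with log2 fold changes of 0.80 to 0.83, 1.18 to 1.26, 1.09 to 1.14, 0.32 to 0.41 and -0.46 to -0.32. Plod3 kept its direction under all 16 (0.05 to 0.12) and its call under 11. Plod1 was called under 3 of 16 (-0.14 to -0.03), and P4ha3 under none. No log2 fold change of a member turned its sign. The count of members called as lower was 2 with the length and GC offset and 2 with the replicate block plus that offset, the second being Plod1, and 1 to 2 when 1 library was left out. Genes lower in the test against a 1.5-fold change numbered 1 to 2 when 1 library was left out. Without length scaling, the change in share was -6.74 points for P4ha1, -0.67 for P4ha3, -9.81 for Plod1 and -8.77 for Plod3, which follows from the lengths by which the levels are divided. The changes in the other shares and in all 7 log2 ratios moved by less than 1 SD under the settings tried for them. The shares themselves depend on the lengths used. By the longest transcript P4ha2 and P4ha1 were at 35.4 and 35.7 CPM per kb in shCtrl. In shFam172a they were at 82.9 and 62.6 CPM per kb.

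No sign that the replicate numbers pair the samples was seen, though with 3 samples per group this check cannot settle it. Deviations of same-numbered samples from their group means correlated at -0.022, -0.057 and -0.034 over 9400 genes, and no label ties the numbers to a day. With the replicate block 2150 genes were higher and 2318 lower, and the same number of members were called, 5 higher and 1 lower. Depth limits Lox and Loxl1, where 0 counts in shCtrl allow up to 0.0840 CPM, and P4ha3 and Loxl3, which had 38 to 112 and 129 to 197 counts per library.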
